A study of Rattus norvegicus with 9 samples.

Results

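The 10 genes described here encode the interleukin-6 (IL-6) cytokine axis and its feedback inhibitors. They are the ligands Il6 and Lif, the receptor chains Il6r, Osmr and Il6st, the transcription factor Stat3, and the inhibitors Socs1, Socs2, Socs3 and Cish. They were taken by symbol from a table of 18964 genes, where each of the 10 matched 1 row, and all 10 were among the 14643 genes that passed a filter on low counts. The RNA came from gastric lymphatic vessels, which drain fluid and immune cells from the stomach, of male Sprague-Dawley rats weighing between 180 and 220 g and labelled wild type. BXD rats were fasted for 12 h, were kept for 4 h in water 15 cm deep at about 22 °C, a stress that produces gastric ulcers, and 30 min later received Banxia Xiexin decoction, a Chinese herbal medicine, by gavage at 10 ml per kg. Model rats went through the same fast and stress and received a control gavage of the same volume, given as saline in one label and as distilled water in another. Control rats were fasted, not stressed, and received water. The rats' age and the time from gavage to tissue collection are not given in the sources used here. Each group had 6 rats and 3 libraries, and the labels do not tie libraries to rats. Each p-value therefore weighs a group difference only against the spread between these libraries, which may not be that between rats.

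Cytokines of this family signal through a shared receptor chain, gp130, the product of Il6st. IL-6 binds its own receptor Il6r, LIF and oncostatin M bind chains that pair with gp130, and the complex activates Janus kinases, which phosphorylate STAT3. STAT3 enters the nucleus and induces, among other genes, Socs3, whose protein binds gp130 and the kinases and shuts the signal off. Cish and Socs2 are induced mainly through STAT5, and Socs1 chiefly restrains interferon signalling. During inflammation IL-6 is made by macrophages, fibroblasts, muscle and endothelial cells, and STAT3 signalling is known for its part in the repair of the stomach lining.

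The sequences before the listed gene start are shown for inhibitor genes. STAT proteins are known to bind paired sites of the form TTCNNNGAA, a motif that reads the same on both strands. The 250 bases before each gene's start were taken from RefSeq on the GRCr8 build, which is not the build of the counts. Of 33469 such windows, 2566 or 7.67% held the motif. The RefSeq table held 8 of the 10 genes, all but Lif and Socs2, and 2 of the 8 held the motif. The Cish window (chr8:116850719-116850968, plus strand) held 4 copies, beginning 241, 230, 136 and 119 bases before the start, the Socs1 window (chr10:5389324-5389573, plus strand) held 1, and the Socs3 window (chr10:103694769-103695018, minus strand) held 0. Each is written 5′ to 3′, with the motif in capitals.
Cish: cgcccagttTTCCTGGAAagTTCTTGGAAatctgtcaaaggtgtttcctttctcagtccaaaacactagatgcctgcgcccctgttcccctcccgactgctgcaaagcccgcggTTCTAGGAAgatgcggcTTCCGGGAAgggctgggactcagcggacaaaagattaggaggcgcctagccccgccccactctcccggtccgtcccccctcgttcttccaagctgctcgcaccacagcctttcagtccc
Socs1: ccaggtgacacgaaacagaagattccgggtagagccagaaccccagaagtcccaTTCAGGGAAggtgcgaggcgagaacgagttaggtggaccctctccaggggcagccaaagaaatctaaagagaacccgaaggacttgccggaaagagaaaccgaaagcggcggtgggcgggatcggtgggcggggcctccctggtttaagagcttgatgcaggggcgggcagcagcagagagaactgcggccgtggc
Socs3: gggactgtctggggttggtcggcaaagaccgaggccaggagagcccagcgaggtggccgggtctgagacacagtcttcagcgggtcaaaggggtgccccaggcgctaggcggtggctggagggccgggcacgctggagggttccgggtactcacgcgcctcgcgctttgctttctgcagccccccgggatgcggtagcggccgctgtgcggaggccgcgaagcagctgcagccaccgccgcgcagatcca
Socs3, with 0 copies in this window, had the largest changes of the 4 inhibitors in both comparisons with control, and Cish, with 4, was not called in any comparison. A match is only a run of letters, and its absence from this window says nothing of the factor. Whether each window holds the promoter used in these vessels was not tested, so the copies in Socs3 and Cish cannot be compared as promoter sites.

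Library totals lay between 12313823 and 13455701 counts. CPM values below are counts scaled by library size and composition. BXD replicate 1 stood apart from the other libraries for several of these genes. Of the 10 genes, 7 had their highest value in BXD replicate 1, as did 12.8% of all genes tested, and for 3 of the 10 that value was at least 2-fold the next highest library, as for 0.956% of all genes tested. All 7 markers of lymphatic endothelium and all 7 of smooth muscle had counts in every library. The adipocyte markers summed to 6050 to 9200 CPM in BXD, 10100 to 19300 CPM in model and 3460 to 4520 CPM in control. The smooth muscle markers summed to 5400 to 8300 CPM in BXD, 1810 to 3270 CPM in model and 3890 to 5970 CPM in control. In bulk tissue, fewer cells of a type and less RNA per cell cannot be told apart.

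Called higher after stress alone were 2 receptor chains, the transcription factor and 1 feedback inhibitor, and neither ligand. The share called in either direction was close to that of all genes. Against control, 4 of the 10 genes were called higher in model and 0 lower by edgeR's quasi-likelihood test at a Benjamini-Hochberg adjusted p under 0.05: Il6r, Osmr, Stat3 and Socs3. The share called among all genes tested was 42.2%, with 21.6% higher and 20.6% lower, and 4 of the 10 had an unadjusted p under 0.05, where 51.5% of all genes did. Against control, 5 of the 10 were called higher in BXD and 0 lower, the same 4 genes and Il6, where 30.3% of all genes were called, 16.1% higher and 14.3% lower. In that comparison 6 of the 10 had an unadjusted p under 0.05, where 42.7% of all genes did, and DESeq2 called 5 of the 10 and 35.5% of all genes. Without BXD replicate 1, 4 of the 10 were called higher and 1 lower, where 31.5% of all genes were called. The 10 genes had a median log2 fold change of 0.92 in BXD against control and of 0.44 in model against control, where the medians of all genes tested were -0.022 and -0.014. In model against control the share of the 10 genes called in either direction was close to the background, and it is not a result about these genes. In that comparison Il6r was called in 19 of 19 alternatives, Socs3 in 14, Osmr in 11 and Stat3 in 6. The 2 comparisons use the same control libraries and are not independent.

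Between BXD and model, which asks what the decoction added after the same stress, edgeR called 0 of the 10 genes. It called 9 of all genes tested, or 0.0615%, with 0.0546% higher and 0.00683% lower. At an unadjusted p under 0.05, 5 of the 10 were higher in BXD, Il6, Il6st, Lif, Osmr and Stat3, as against 20.9% of all genes tested in either direction. DESeq2, which called 7.71% of all genes tested, called Il6, Osmr and Stat3 higher, and limma-voom called 0 of the 10. The 10 genes had a median log2 fold change of 0.63, against -0.0059 for all genes tested. Without BXD replicate 1 it was 0.13 and edgeR again called 0 of the 10, where 1.03% of all genes were called. In that fit 3 of the 10 had an unadjusted p under 0.05, as did 3554 of 14880 genes tested. Of these members Osmr and Stat3 were higher in BXD and Il6r lower.

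**Figure D1:**
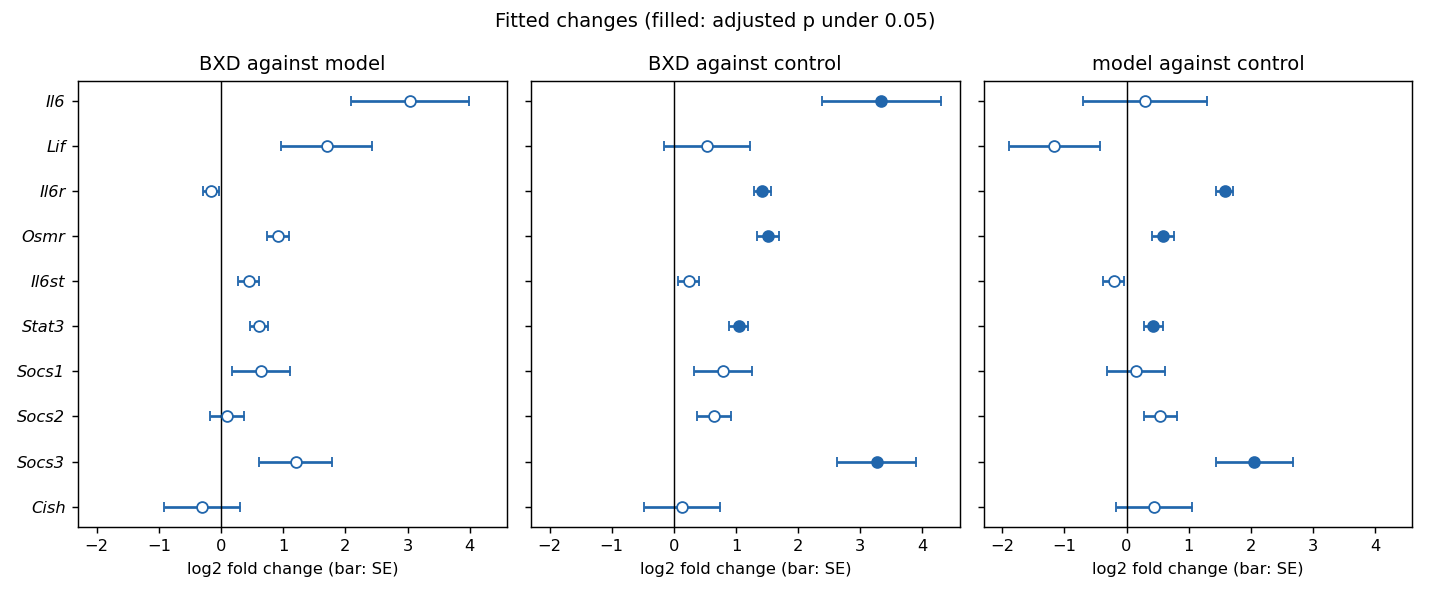
Log2 fold changes (points) with their standard errors (bars) for the 10 genes in the 3 comparisons, fitted to all 9 libraries, with filled points for an adjusted p under 0.05. Il6r, Osmr, Stat3 and Socs3 are filled in both comparisons with control, Il6 in BXD against control, and no point is filled in BXD against model.

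Il6 encodes the founding cytokine of the family (gene 24498, chromosome 4, 3043231 to 3047807, plus strand, Rnor_6.0, the build of all gene coordinates below). It stood at 26.4, 3.77 and 1.21 CPM in the BXD libraries, 1.31, 1.25 and 1.22 CPM in the model libraries and 0.71, 1.43 and 0.911 CPM in the control libraries. These values rest on 316, 48 and 16 counts in BXD, 15, 14 and 16 counts in model and 10, 22 and 13 counts in control. BXD replicates 1 and 2 lay above all other libraries and BXD replicate 3 among them. The model and control ranges overlapped.

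Il6 had a log2 fold change of 3.34 for BXD against control (SE 0.96, adjusted p = 0.0284 in edgeR). Without BXD replicate 1 it was 1.28 (SE 0.51) and the gene was no longer called (adjusted p = 0.0929 in edgeR). The call was made in 10 of 19 alternatives and was also lost without any 1 control library (adjusted p = 0.0689 to 0.0944 in edgeR), with limma-voom (adjusted p = 0.185), on the FPKM values, with only the groups compared (adjusted p = 0.0628 in edgeR) and with the replicate block (adjusted p = 0.0889 in edgeR). For BXD against model it was 3.04 (SE 0.96, adjusted p = 0.141 in edgeR), and 0.97 without BXD replicate 1. For model against control it was 0.30 (SE 1.00, adjusted p = 0.825 in edgeR). Without BXD replicate 1 that difference was 0.31 (SE 0.48, adjusted p = 0.623 in edgeR).

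Lif encodes leukaemia inhibitory factor, which signals through its own receptor chain and gp130 (gene 60584, chromosome 14, 84482652 to 84502293, plus strand). It stood at 15.1, 1.88 and 2.27 CPM in BXD, 1.49, 1.79 and 2.58 CPM in model and 3.69, 4.42 and 5.12 CPM in control. All 3 model libraries and BXD replicates 2 and 3 lay below all 3 control libraries, and BXD replicate 1 lay above them, 2.95-fold over the next highest library. The fit to all libraries called no difference: the log2 fold change was -1.16 for model against control (SE 0.73, adjusted p = 0.224 in edgeR) and 0.54 for BXD against control (SE 0.69, adjusted p = 0.591 in edgeR). Lif was called lower in model than in control in 2 of 19 alternative settings.

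Leaving out BXD replicate 1 lowered the standard error of Lif in both comparisons. Its log2 fold change was then -1.16 for model against control (SE 0.28, adjusted p = 0.0116 in edgeR) and -1.08 for BXD against control (SE 0.32, adjusted p = 0.0345 in edgeR), so that the direction in BXD turned. Both ligands were thus highest in the same library.

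In BXD replicate 1 the summed smooth muscle markers were the highest of the 9 libraries, at 8300 CPM against 5780 and 5400 CPM in BXD replicates 2 and 3. The summed macrophage markers were 543, 558 and 620 CPM in BXD replicates 1, 2 and 3, and the summed neutrophil markers 79.8, 115 and 192 CPM. Most of the neutrophil sum was Mpo, at 45.2, 85.1 and 159.8 CPM. Only 2 of the 6 tested neutrophil markers were highest of the 9 libraries in BXD replicate 1. They were Il1r2, at 10.6, 8.71 and 6.72 CPM, and Csf3r, at 5.59, 0.706 and 1.36 CPM. All 8 macrophage markers and 6 of 7 neutrophil markers had counts in every library, and Ly6g6d was at 0 in BXD replicate 3. Their part in the high values of Il6 and Lif was not tested.

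**Figure D2:**
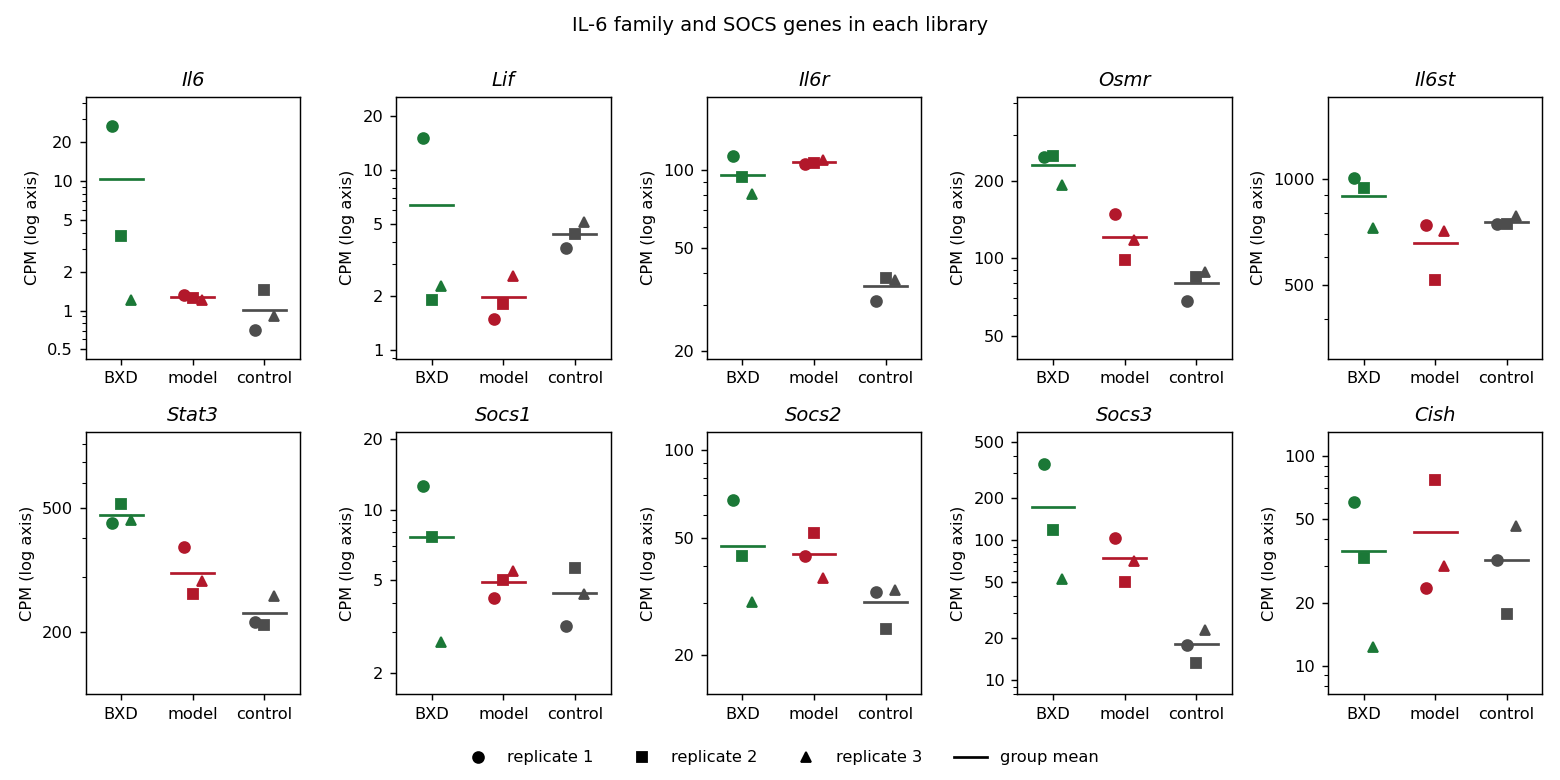
CPM (log axis) of each of the 10 genes in each library of BXD, model and control, with symbols for the replicate number and a line at the group mean. BXD replicate 1 is the highest of the 9 libraries for Il6 at 26.4 CPM, Lif at 15.1 CPM and Socs3 at 349 CPM, and Il6r separates BXD and model from control.

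Il6r, the ligand-binding chain that confines the classical IL-6 response to the cells that carry it, was 3.00-fold higher in model than in control (gene 24499, chromosome 2, 189196180 to 189255987, plus strand). It stood at 113, 93.6 and 80.7 CPM in BXD, 106, 106 and 109 CPM in model and 31.2, 38.4 and 37.4 CPM in control. All 6 stressed libraries lay above all 3 control libraries, and BXD and model overlapped. Il6r had a log2 fold change of 1.58 for model against control (SE 0.14, adjusted p = 0.00023 in edgeR) and 1.42 for BXD against control (SE 0.14, adjusted p = 0.000558 in edgeR). Both calls were made in 19 of 19 alternative settings. Between BXD and model it was -0.16 (SE 0.13, adjusted p = 0.524 in edgeR). Summed adipocyte markers also lay higher in all 6 stressed libraries than in control, and their part in this difference was not tested.

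Osmr, the oncostatin M receptor chain that pairs with gp130, was graded over the groups (gene 310132, chromosome 2, 56107491 to 56163522, minus strand). It stood at 248, 249 and 191 CPM in BXD, 148, 98.2 and 118 CPM in model and 68.0, 84.5 and 88.7 CPM in control. In CPM no library of one group lay within the range of another. In TPM, which is not scaled by composition, model replicate 2 at 17.73 lay within the control range of 17.33 to 22.34. BXD against control came to a log2 difference of 1.51 (SE 0.18, adjusted p = 0.000988 in edgeR), a call made in 19 of 19 alternatives, and 1.46 without BXD replicate 1. For model against control it was 0.59 (SE 0.18, adjusted p = 0.0249 in edgeR), and with library size alone as the scaling it was 0.32 (adjusted p = 0.186 in edgeR). That call was also lost without control replicate 1 or 2 or model replicate 1 (adjusted p = 0.0582 to 0.0879 in edgeR). For BXD against model it was 0.92 (SE 0.18, adjusted p = 0.0879 in edgeR), and DESeq2 called it with an adjusted p of 0.00021.

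Il6st, the gp130 chain that all these receptors share, was the most abundant of the 10 genes in TPM and was not called by edgeR in any comparison (gene 25205, chromosome 2, 44279199 to 44319427, plus strand). It stood at 1010, 947 and 726 CPM in BXD, 743, 516 and 712 CPM in model and 744, 744 and 787 CPM in control. All 3 model libraries lay below the control libraries, model replicate 1 only just, and BXD overlapped both. Il6st had log2 fold changes of -0.21 for model against control (SE 0.17), 0.24 for BXD against control (SE 0.17) and 0.45 for BXD against model (SE 0.17), with adjusted p of 0.344, 0.31 and 0.183 in edgeR. On the deposited FPKM values limma called Il6st lower in model, with a log2 change of -0.50 on the log2(FPKM + 1) scale (adjusted p = 0.0441).

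Stat3, the transcription factor that gp130 activates, followed the order of Osmr (gene 25125, chromosome 10, 88790401 to 88842263, minus strand). It stood at 448, 516 and 457 CPM in BXD, 374, 265 and 292 CPM in model and 216, 211 and 262 CPM in control. Again no library of one group overlapped those of another in CPM, though model replicate 2 and control replicate 3 nearly met. BXD against control came to a log2 difference of 1.04 (SE 0.15, adjusted p = 0.00175 in edgeR), called in 19 of 19 alternatives, and 1.08 without BXD replicate 1. For BXD against model it was 0.61 (SE 0.15, adjusted p = 0.107 in edgeR). For model against control it was 0.43 (SE 0.15, adjusted p = 0.0432 in edgeR), a call made in 6 of 19 alternatives. The call was lost without control replicate 1 or 2, model replicate 1 or 3, or BXD replicate 2 or 3 (adjusted p = 0.0555 to 0.144 in edgeR). With library size alone it was 0.17 (adjusted p = 0.425 in edgeR), and in TPM, which is scaled by length and not by composition, Stat3 averaged 88.6 ± 19.6 in model and 89.1 ± 9.42 in control (SD, n = 3 each).

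Osmr and Stat3 were thus the 2 genes of the 10 whose groups did not overlap in CPM in any of the 3 comparisons. In TPM the model and control ranges overlapped for both genes. The separation in CPM only describes these libraries, since the share of all genes whose groups separate in this way was not counted. For BXD against model 20.9% of all genes tested had an unadjusted p under 0.05 in edgeR, and 0.0615% were called. Smooth muscle markers also summed higher in every BXD library than in any model library. The part of cell makeup in these differences was not tested.

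Socs3, the feedback inhibitor induced by STAT3, had the largest change of any of the 10 genes after stress alone (gene 89829, chromosome 10, 106973849 to 106976969, minus strand). It stood at 349, 118 and 52.5 CPM in BXD, 104, 50.3 and 70.6 CPM in model and 17.9, 13.3 and 22.9 CPM in control. All 6 stressed libraries lay above all 3 control libraries. BXD replicates 1 and 2 exceeded all model libraries and BXD replicate 3 lay within the model range. Model against control came to a log2 difference of 2.06 (SE 0.61, adjusted p = 0.0257 in edgeR). Without any 1 control library, or without model replicate 1 or 3, the adjusted p in edgeR was 0.0511 to 0.0856, with log2 fold changes of 1.75 to 2.25. For BXD against control it was 3.26 (SE 0.64, adjusted p = 0.00632 in edgeR), called in 19 of 19 alternatives.

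The difference in Socs3 between BXD and model rested on BXD replicate 1. With it the log2 fold change came to 1.20 (SE 0.59, adjusted p = 0.279 in edgeR), and without it to 0.18 (SE 0.40, adjusted p = 0.81 in edgeR). Without that library Socs3 was still 4.73-fold higher in BXD than in control and 4.17-fold higher in model than in control. Summed neutrophil markers were 79.8 to 192 CPM in BXD, 166 to 305 CPM in model and 50.3 to 96.0 CPM in control, most of it Mpo. Il1r2, S100a8 and S100a9 of that list were higher in every BXD library than in any model library, against the order of the sum, and the list's median log2 fold change for BXD against model was 0.72. The part of these markers in the Socs3 differences was not tested.

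Socs1, the inhibitor of Janus kinases best known from interferon signalling, was not called by edgeR in any comparison with all libraries (gene 252971, chromosome 10, 4956795 to 4958472, plus strand). It stood at 12.6, 7.61 and 2.72 CPM in BXD, 4.20, 5.02 and 5.47 CPM in model and 3.20, 5.65 and 4.35 CPM in control. BXD held both the highest and the lowest library and overlapped with both other groups. Socs1 had a log2 fold change of 0.79 for BXD against control (SE 0.47, adjusted p = 0.226 in edgeR), and without BXD replicate 3 it was 1.20 (adjusted p = 0.0275 in edgeR). It was 0.64 for BXD against model (SE 0.47) and 0.15 for model against control (SE 0.47, a direction that turned with library size alone), with adjusted p of 0.464 and 0.809 in edgeR.

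Socs2, which restrains growth hormone signalling, stood at 67.7, 43.5 and 30.3 CPM in BXD, 43.3, 52.2 and 36.7 CPM in model and 32.7, 24.5 and 33.4 CPM in control (gene 84607, chromosome 7, 36495496 to 36500878, minus strand). All 3 model libraries lay above all 3 control libraries, and BXD overlapped both. Socs2 had a log2 fold change of 0.55 for model against control (SE 0.27, adjusted p = 0.135 in edgeR), 0.64 for BXD against control (SE 0.27, adjusted p = 0.102 in edgeR) and 0.099 for BXD against model (SE 0.27, adjusted p = 0.861 in edgeR). Without BXD replicate 1 Socs2 was called higher in model than in control (0.55, SE 0.20, adjusted p = 0.0489 in edgeR), and without BXD replicate 3 higher in BXD than in control (0.88, adjusted p = 0.0277 in edgeR).

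Cish, the cytokine-inducible inhibitor that acts on receptors using STAT5, varied widely within each group (gene 83681, chromosome 8, 116054547 to 116059494, plus strand). It stood at 60.4, 32.6 and 12.2 CPM in BXD, 23.6, 76.5 and 30.0 CPM in model and 32.0, 17.6 and 46.4 CPM in control. Model replicate 2 was the highest library and BXD replicate 3 the lowest, and all 3 groups overlapped. Cish had a log2 fold change of 0.13 for BXD against control, -0.31 for BXD against model and 0.44 for model against control, each with an SE of 0.61 and adjusted p of 0.892, 0.806 and 0.587 in edgeR, and each changed sign in at least 1 of 19 alternatives.

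**Figure D3:**
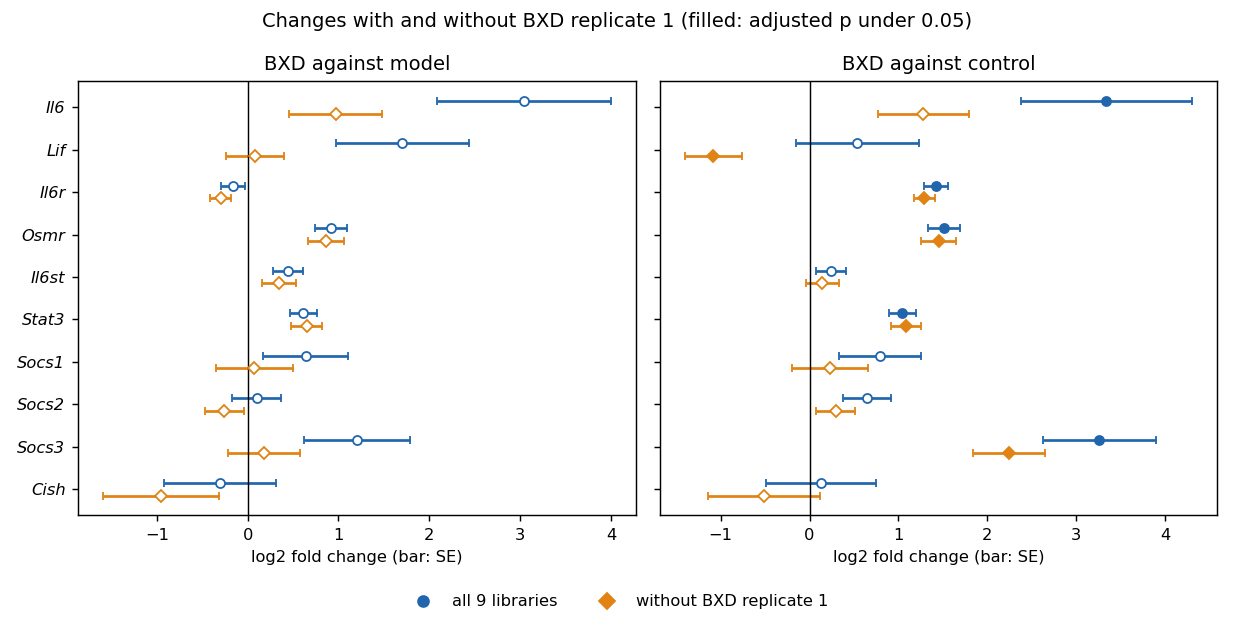
Log2 fold changes (points) with standard errors (bars) for BXD against model and BXD against control, from all 9 libraries (circles) and without BXD replicate 1 (diamonds), filled for an adjusted p under 0.05. Il6, Lif and Socs3 move most when the library is left out, Osmr, Stat3 and Il6r stay near their values, and Lif against control is -1.08 without the library and 0.54 with it.

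Levels of different genes were set side by side in TPM, the length-scaled transcript abundance deposited by the authors. In BXD the order of mean levels was Il6st at 161 ± 27.6 TPM, Stat3 at 150 ± 14.3 TPM, Socs3 at 101 ± 89.7 TPM, Osmr at 47.6 ± 7.05 TPM, Socs2 at 36.1 ± 12.9 TPM, Cish at 29.4 ± 20.1 TPM, Il6r at 28.5 ± 4.96 TPM, Il6 at 18.1 ± 23.9 TPM, Socs1 at 11.3 ± 7.30 TPM and Lif at 5.34 ± 5.0 TPM (SD, n = 3). The ranges of every pair of neighbours in that order overlapped in BXD. In model Il6st led at 106 ± 25.6 TPM and Il6 was last at 1.97 ± 0.137 TPM, next to Lif at 1.98 ± 0.499 TPM (SD, n = 3). In that order only Stat3 from Socs3, Osmr from Socs1 and Socs1 from Lif were separated by non-overlapping ranges. In control Il6st at 168 ± 6.37 TPM lay clear of Stat3 at 89.1 ± 9.42 TPM, and Il6 was last at 2.17 ± 0.857 TPM (SD, n = 3). Socs3 was seventh of the 10 genes in control, at 12.8 ± 3.09 TPM, and the third in BXD and in model, where it averaged 39.7 ± 15.7 TPM (SD, n = 3).

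**Figure D4:**
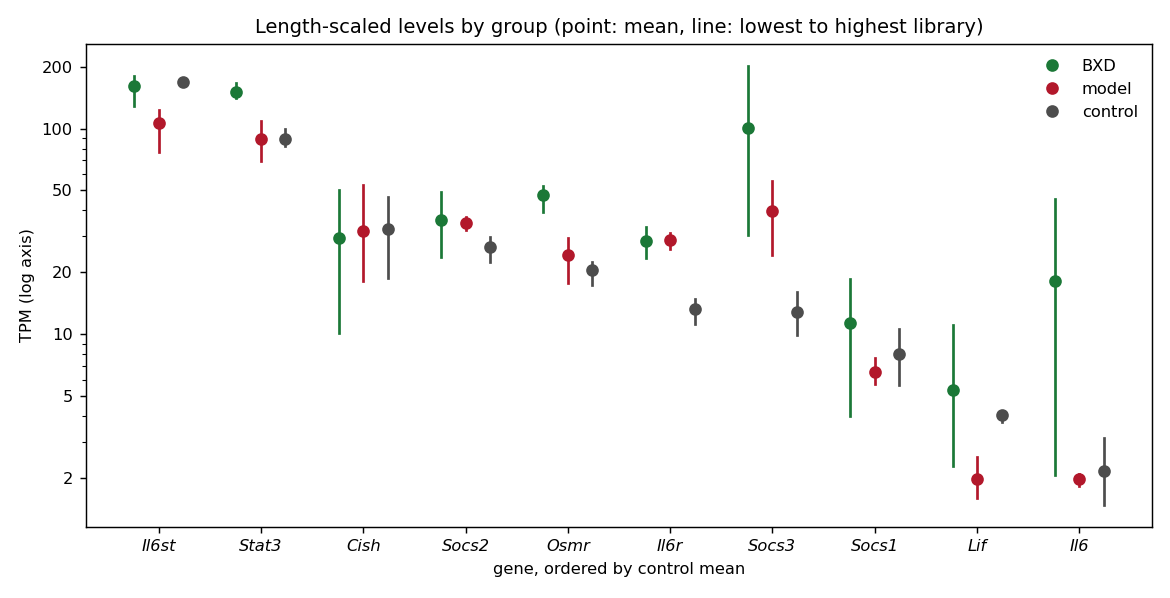
TPM (log axis) of the 10 genes in BXD, model and control, with a point at the group mean and a line from the lowest to the highest of 3 libraries, ordered by the control mean. Il6st and Stat3 are the most abundant throughout, Il6 and Lif are last in control and model, and the lines of Socs3 and Il6 are longest in BXD.

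Further genes of the pathway were described from 8 lists, whose counts stand against the 42.2% of all genes called in model against control (21.6% higher, 20.6% lower) and the 30.3% called in BXD against control (16.1% higher, 14.3% lower). Of the 6 other STAT factors, 5 were called lower and 1 higher in model than in control, with a median log2 fold change of -0.61, and 3 were called lower and 0 higher in BXD. Stat6, the mediator of interleukin-4 signals, averaged 57.4 ± 6.90 CPM in BXD, 40.5 ± 5.35 CPM in model, with 87.9 ± 5.59 CPM in control (SD, n = 3), 2.17-fold lower in model than in control (adjusted p = 0.000622 in edgeR). Stat2, which carries interferon signals, was 1.60-fold lower in model than in control (adjusted p = 0.00202 in edgeR), and both calls were made in 19 of 19 alternatives. Stat4, the 1 called higher and named after its values were seen, had a log2 fold change of 1.86 (adjusted p = 0.0417 in edgeR). It was not called with library size alone or without BXD replicate 1, where 5 of the list were called lower and 0 higher in each. Nor was Stat4 called with upper quartile scaling (adjusted p = 0.0549 in edgeR) or on log2(FPKM + 1) (adjusted p = 0.118 in limma). DESeq2 called it (adjusted p = 0.00953).

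Of the 4 Janus kinases 1 was called lower and 0 higher against control in both stressed groups. Tyk2, a kinase of interferon and interleukin-12 receptors, averaged 23.9 ± 2.55 CPM in BXD, 24.1 ± 3.49 CPM in model, with 57.0 ± 2.55 CPM in control (SD, n = 3). It was 2.36-fold lower in model than in control (adjusted p = 0.000423 in edgeR) and 2.38-fold lower in BXD than in control (adjusted p = 0.000691 in edgeR). Jak1 and Jak2, the kinases most used by gp130 and named after their values were seen, were not called in model against control (log2 fold changes 0.27 and -0.18, adjusted p = 0.163 and 0.309 in edgeR). With library size alone Jak2 was called lower in model (-0.45, adjusted p = 0.0397 in edgeR). Over all settings 1 to 3 of the 4 kinases were called lower in model than in control.

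Of 14 other inhibitors 8 were called higher and 3 lower in model than in control, and 8 higher and 2 lower in BXD than in control, at the same backgrounds. With library size alone the counts were 3 higher and 3 lower for model and 7 and 3 for BXD. Socs6 and Socs4, relatives of the SOCS genes above, were 2.33-fold and 2.79-fold higher in model than in control (adjusted p = 0.000225 and 0.00121 in edgeR), and Pias3, an inhibitor of STAT3 binding to DNA, was 2.00-fold lower (adjusted p = 0.000821 in edgeR). Each of these 3 calls was made in 19 of 19 alternatives. The remaining SOCS genes in this list, Socs5 and Socs7, named after their values were seen, had log2 fold changes of 0.62 and 0.40 in model against control (adjusted p = 0.0426 and 0.0303 in edgeR), and neither was called with library size alone.

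Of 6 other gp130 ligands tested 1 was called lower and 0 higher in model than in control, where 42.2% of all genes were called. Il11, Il27 and Il31 did not pass the filter on low counts. Of 7 receptors 1 was called higher, Lifr, the LIF receptor chain, at 1.72-fold (adjusted p = 0.00503 in edgeR), and 1 lower, Lepr, the leptin receptor, at 1.55-fold (adjusted p = 0.0386 in edgeR), a call made in 13 of 19 alternatives. In BXD against control Lifr was the 1 receptor called, at 1.42-fold higher (adjusted p = 0.0372 in edgeR), a call made in 6 of 19 alternatives.

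Of 20 STAT3 target genes, 7 were called higher and 1 lower in BXD than in control, with a median log2 fold change of 0.89, and 4 higher and 1 lower in model than in control, with a median of 0.19. For all genes tested the medians were -0.022 and -0.014. The called shares are set against backgrounds of 30.3% and 42.2% of all genes. The difference between these counts was not tested. Without BXD replicate 1 the counts for BXD were 6 and 3 and the median 0.51. Of the 20, 11 had their highest value in BXD replicate 1, or 55.0%, where 12.8% of all genes tested did. Bcl2l1, which encodes the survival protein Bcl-xL, averaged 278 ± 26.7 CPM in BXD, 283 ± 49.7 CPM in model, with 79.7 ± 20.8 CPM in control (SD, n = 3), 3.55-fold higher in model than in control (adjusted p = 0.000521 in edgeR). Mcl1, another survival protein, was 1.75-fold higher and Ccnd1, cyclin D1, 2.87-fold lower in model than in control (adjusted p = 0.0032 and 0.000616 in edgeR).

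**Figure D5:**
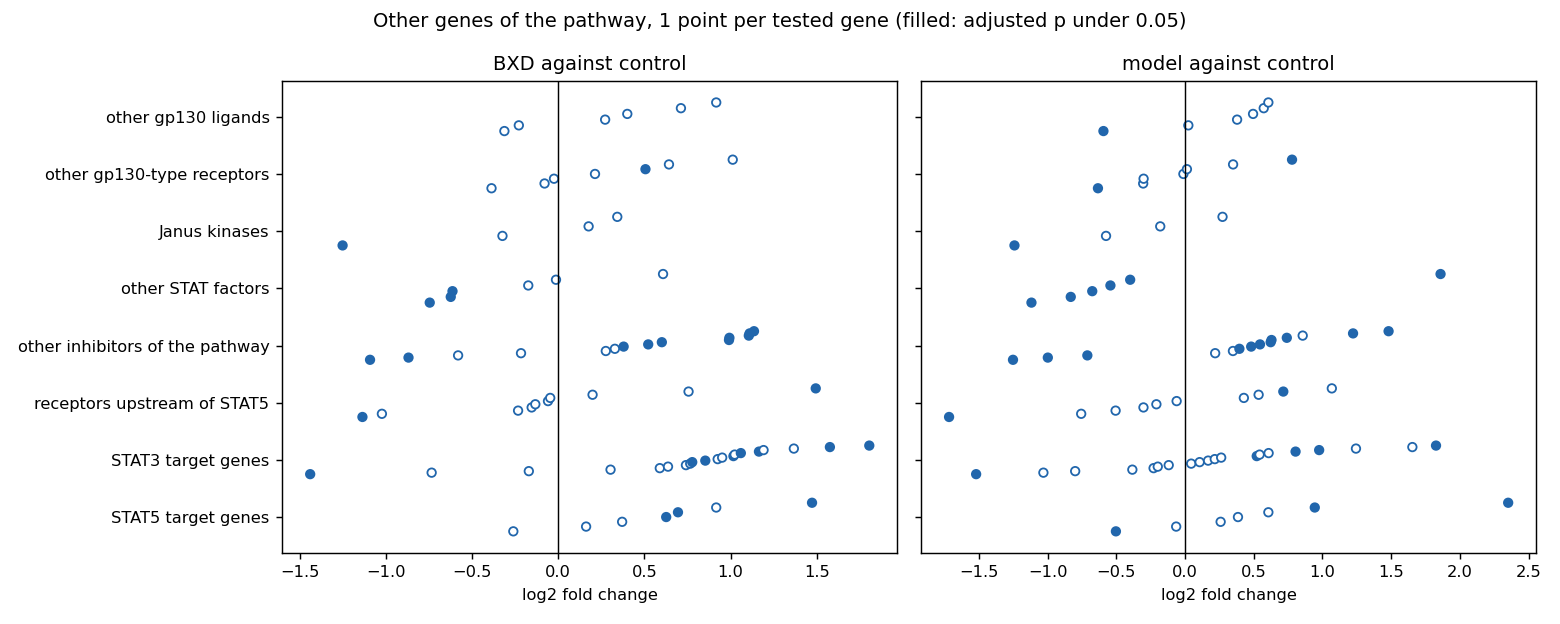
Log2 fold changes of the other pathway genes in BXD against control and model against control, 1 point per tested gene, grouped by list and filled for an adjusted p under 0.05. Most filled points of the other STAT factors lie below 0 and most of the other inhibitors above 0 (3 higher and 3 lower in model with library size alone), and 7 STAT3 target genes are filled above 0 in BXD against control.

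Genes whose log2 CPM was most alike to that of a called gene over the 9 libraries were named by the highest Pearson r, as a description, with 3 groups and a shared library composition among the points. For Socs3 they were Arid5a, Abl1 and Midn, with r of 0.993, 0.991 and 0.987. For Il6r they were Smad4, Clec1a and Cdv3, with r of 0.993, 0.992 and 0.992. For Stat3 they were Tead4, Smim14 and Chst1, with r of 0.984, 0.983 and 0.982, and for Osmr they were Ripk1, Tacc1 and Dstn, with r of 0.988, 0.986 and 0.984. For Il6 they were Tifa, Lgals3bp and Rnd3, with r of 0.962, 0.94 and 0.938. Arid5a stood at 192, 96.1 and 54.9 CPM in BXD, 85.8, 54.7 and 72.4 CPM in model and 37.3, 28.4 and 36.9 CPM in control, with BXD replicate 1 the highest, as for Socs3. Clec1a stood at 46.1, 41.4 and 39.1 CPM in BXD, 51.5, 45.3 and 46.9 CPM in model and 17.0, 18.2 and 18.9 CPM in control, with stressed and control libraries apart as for Il6r.

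The authors' deposited table, from DESeq2, lists 6 of the 10 genes with a q-value under 0.05 for model against control, 3 for BXD against model and 5 for BXD against control, where 6747, 533 and 4919 of all its genes are under that threshold. The genes with a q-value were not counted, so no share is given. The edgeR shares of 42.2%, 0.0615% and 30.3% come from another method and are not a background for these counts. The DESeq2 alternative called 6768, 1129 and 5205 of 14643 genes in these comparisons, and 4, 3 and 5 of the 10. For BXD against model that was 7.71% of all genes, and for BXD against control 35.5%. In the authors' deposited table Lif has a log2 fold change of -1.14 for model against control with a q-value of 0.00807, and Socs2 one of 0.57 with a q-value of 0.0213. For BXD against model the authors' deposited table gives q-values of 0.0246 for Il6, 0.00135 for Osmr and 0.0231 for Stat3.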

How the data were processed

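Libraries of poly(A) RNA were run on an Illumina HiSeq, per the labels' protocols. HISAT2 2.2.4, Bowtie2 2.2.5 and the Rnor_6.0 build are listed in the submitters' processing notes, while the sources used here do not give the counting tool or its strand setting. The authors deposited estimated counts, FPKM and TPM for 18964 genes, per the file headers, and 88.8% of the count values were whole within 1e-09. A second table deposited by the authors holds their log2 fold changes, q-values and p-values, made with DESeq2 per the file headers, and 45 further columns of per-sample values were not used. Estimated counts were rounded, filtered with filterByExpr and scaled by trimmed means of M-values (factors 0.873 to 1.15). A robust quasi-likelihood model with the group as its only term (edgeR 4.0.16, R 4.3.3) was fitted to all 9 libraries, leaving 6 residual degrees of freedom, with p-values adjusted over 14643 genes. Each SE is the absolute log2 fold change over the root of F. Replicates differed beyond counting noise (chi-square over its degrees of freedom 13.5 to 49.3 within groups). Counting error limits genes with few counts, such as Il6, and values in TPM and FPKM give no depth of their own.

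The alternatives were upper quartile scaling, library size alone, DESeq2 1.42.0, limma-voom (limma 3.58.1), no filter, at least 1 CPM in 3 libraries, limma on log2(FPKM + 0.1) and log2(FPKM + 1), only the groups compared, a replicate block and leaving out each of the 9 libraries. The fit was tested on simulated data. The 10 genes and the lists were chosen with earlier results of these data known. Named genes beyond the 10 were, per list, up to 3 called genes with the smallest p in model against control, and any called in BXD against model, with the 3 most alike genes of each called member. Chromosome numbers come from the cytogenetic bands in the authors' table. Some genes that this rule names are not reported here.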

Additional observations from a re-analysis of the deposited data

How the results depend on the processing

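With 3 libraries a group, calls near the threshold depended on single settings. The number of the 10 genes called for model against control was 4, and 2 with upper quartile scaling, library size alone or the replicate block, and 1 to 6 when 1 library was left out. For BXD against model it was 0, 3 with DESeq2 and 0 whichever library was left out, and for BXD against control 5 and 4 to 7. Over all genes, BXD against model gave 9 calls, 1129 with DESeq2, 3 with limma-voom, 16 with no filter, 26 and 27 with FPKM and pseudocounts of 0.1 and 1, 1 with only the groups compared, 1 with the replicate block and 1 to 154 with 1 library left out (154 without BXD replicate 1 and 112 without BXD replicate 2). For BXD against control it gave 4444 and 2728 to 4775 with 1 left out, and for model against control 6177 and 4317 to 6890. The median of all genes in model against control was -0.014, and -0.28 with library size alone, where 1619 genes were called higher and 4910 lower in place of 3161 and 3016. Replicate numbers were not said to pair rats, and same-numbered libraries did not deviate together, with correlations of 0.048 to 0.086 for model against control, -0.43 to -0.11 for BXD against model and -0.24 to 0.055 for BXD against control.

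Directions turned for genes without a call, as log2 fold changes. Socs1 in model against control was -0.12 with library size alone, -0.074 and -0.067 with FPKM at pseudocounts of 0.1 and 1, and -0.038 to 0.36 with 1 library left out, the lowest without control replicate 1. Cish in BXD against control was -0.090 with library size alone, -0.049 with limma-voom, -0.24 and -0.22 with FPKM, -0.025 with the replicate block, and -0.51 to 0.54 with 1 left out, the lowest without BXD replicate 1 and -0.16 without control replicate 2. With 1 left out Cish was -0.25 to 0.79 in model against control and -0.95 to 0.38 in BXD against model, turning without model replicate 2 in both and, at 0.10, without BXD replicate 3 in BXD against model. Socs2 in BXD against model was -0.10 and -0.097 with FPKM, and -0.26 to 0.34 with 1 left out, turning without BXD replicate 1 and, at -0.019, without model replicate 3. Lif in BXD against control was -0.15 with limma-voom and -1.08 to 0.96 with 1 left out, the lowest without BXD replicate 1. The cause was not tested.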

Other observations

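Genes on the STAT5 side of cytokine signalling, which Cish and Socs2 are known to restrain, were described too. In BXD against model, where 0.0615% of all genes were called, 1 of 10 tested receptors upstream of STAT5 was called higher and 0 lower. It was Csf2rb, the common beta chain of several myeloid cytokine receptors, which averaged 114.5 ± 24.2 CPM in BXD, 33.0 ± 7.67 CPM in model, and in control 40.7 ± 3.00 CPM (SD, n = 3). In edgeR its log2 fold change was 1.80 for BXD against model (adjusted p = 0.032), a call made in 10 of 19 alternatives. Among the settings that lost the call was the fit without BXD replicate 3 (1.88, adjusted p = 0.0677 in edgeR). In model against control Ghr, the growth hormone receptor, was 1.64-fold higher (adjusted p = 0.00764 in edgeR). Of 7 tested STAT5 target genes 2 were called higher and 1 lower in model than in control, where 42.2% of all genes were called. Lpl, lipoprotein lipase, was 5.10-fold higher, Bcl6, a transcriptional repressor, 1.92-fold higher and Ccnd2, cyclin D2, 1.42-fold lower (adjusted p = 0.000622, 0.0028 and 0.0207 in edgeR). Lpl is also a fat cell gene, and summed adipocyte markers were 10100 to 19300 CPM in model and 3460 to 4520 CPM in control. Its part in the Lpl difference was not tested.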
